A study of Mus musculus with 35 samples.

Results

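Small RNA libraries from the mouse fat depots labelled aWAT and cWAT were compared across all microRNAs (miRNAs) in the deposited table. These are 6 of the 35 samples of the series, 3 from aWAT and 3 from cWAT, and every one of the 485 listed miRNAs was kept as a member. The study also sequenced small RNA from 4 other depots (iWAT, eWAT, mWAT and iBAT, 3 libraries each), messenger RNA in 8 samples and Argonaute-bound RNA in 9 samples. The mice were males of the C57BL/6J strain, 13 weeks of age, with no genetic alteration named. RNA came from whole fat pads, so every cell type of a pad contributed to its library.

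No label spells out aWAT or cWAT. The protocol text describes pads from mice kept at room temperature and, beside them, inguinal pads from mice kept at 4 °C for 1 week, and it does not say which label the cold-housed pads carry. Housing temperature was therefore not used to define a group, and depot and housing cannot be told apart in this comparison if cWAT is the cold-housed fat. No label says that libraries came from separate animals. The p-values therefore measure the spread between libraries of a depot, pooled over the 6 depots, and that spread may be technical.

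A miRNA is a short RNA that guides Argonaute proteins to messenger RNAs, chiefly by pairing through its seed, the stretch from base 2 to base 8. Several miRNA genes lie inside the Hox clusters, whose genes specify position along the body axis, and fat depots are known to keep a Hox expression pattern of their site of origin. Others are known as markers of a cell type, such as miR-206 of skeletal muscle, the miR-200 family of epithelium and miR-142 of blood cells, and the miR-193b and miR-365 pair is known from brown fat cells of the mouse.

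The mature sequences below are those the results turn on. They were taken from RefSeq's table for GRCm38.p6, in which 424 of the 485 miRNAs were matched by name, and the capitals mark the seed. The first set holds the miRNAs of the Hox clusters that were lower in aWAT.
miR-196a-5p: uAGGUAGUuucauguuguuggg
miR-196b-5p: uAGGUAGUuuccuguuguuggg
miR-615-3p: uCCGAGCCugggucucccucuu
Both miR-196 forms had the seed AGGUAGU and differed at 1 of 22 positions, so the split of reads between them depends on how the reads were counted. The next set holds miRNAs of skeletal muscle and of epithelium that were higher in aWAT, where miR-200b-3p and miR-429-3p shared a seed and miR-200a-3p had another.
miR-206-3p: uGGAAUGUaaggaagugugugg
miR-133b-3p: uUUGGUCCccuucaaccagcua
miR-205-5p: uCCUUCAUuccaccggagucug
miR-200a-3p: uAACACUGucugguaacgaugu
miR-200b-3p: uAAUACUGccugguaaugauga
miR-429-3p: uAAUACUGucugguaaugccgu
The last set holds a miRNA of brown fat, one of blood cells and one of the Dlk1-Dio3 cluster, followed by 3 miRNAs with the seed AGCAGCA that did not move the same way.
miR-193b-3p: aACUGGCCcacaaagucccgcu
miR-142a-5p: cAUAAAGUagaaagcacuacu
miR-136-3p: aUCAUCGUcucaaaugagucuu
miR-15b-5p: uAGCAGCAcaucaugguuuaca
miR-195a-5p: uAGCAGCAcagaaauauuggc
miR-497a-5p: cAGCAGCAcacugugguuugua

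Levels are given as normalized counts, which the authors made by dividing each library's counts by its size factor. Recovered read totals were 2535190, 1791767 and 1815943 in the aWAT libraries and 2452236, 1449708 and 6816555 in the cWAT libraries. Differences were tested with limma on log2(normalized count + 1) in 1 fit of all 18 small RNA libraries, which understates the change of miRNAs with low counts. A miRNA was called at a Benjamini-Hochberg adjusted p under 0.05. A bracket that holds only a value ± its error and an adjusted p gives the log2 fold change of that fit with its SE. Levels of different miRNAs are not compared beyond their order of abundance, since miRNAs differ in how well they are captured.

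Of 436 miRNAs tested, 67 (15.4%) were called, 35 (8.03%) higher and 32 (7.34%) lower in aWAT. A further 49 miRNAs were too low to test. The higher group held 6 of the 7 tested striated muscle miRNAs and 3 miRNAs of the miR-200 family, with differences up to a log2 fold change of 7.14, and the lower group was led by miR-196a-5p at -7.28. Among called miRNAs, 18 were higher and 11 lower by a log2 fold change of at least 1 in size, and the median over all tested miRNAs was 0.02. The 3 aWAT and 3 cWAT values did not overlap for 64 of the called miRNAs, against 111 (25.5%) of all tested. edgeR's quasi-likelihood test on recovered reads called 73 and DESeq2 called 85, and 65 miRNAs were called by all 3 tools.

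**Figure D1:**
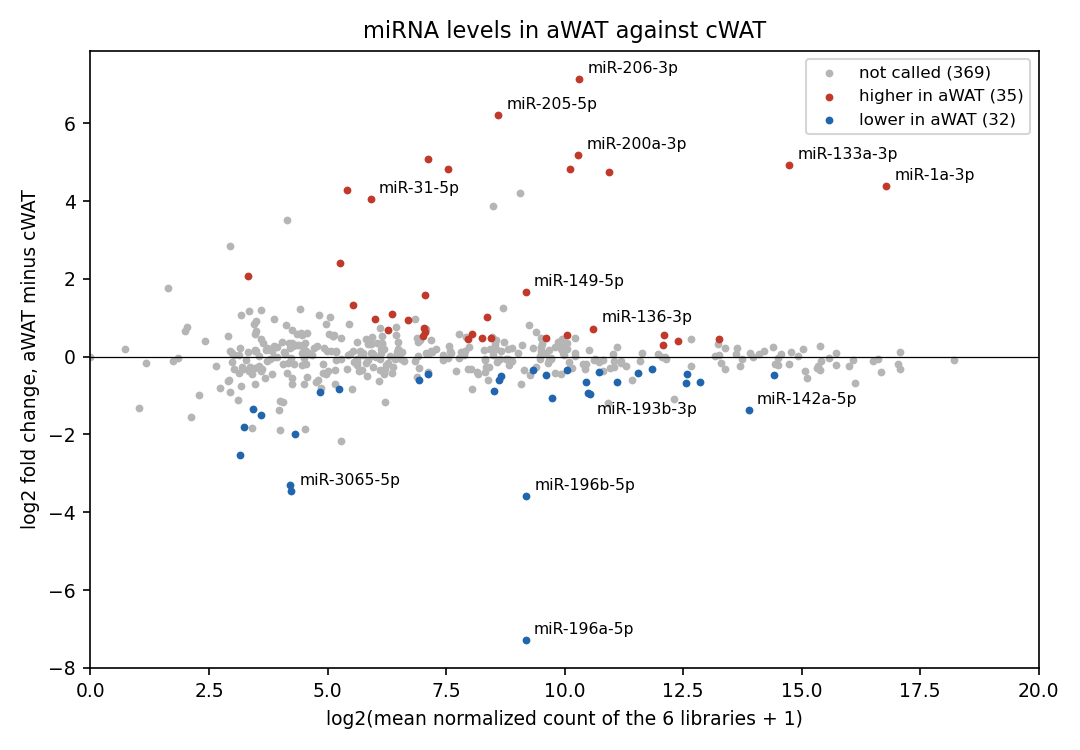
Each point is 1 of the 436 tested miRNAs, with its mean level over the 6 libraries on the x axis, as log2(mean normalized count + 1), and its log2 fold change, aWAT minus cWAT, on the y axis. Red points are the 35 called higher and blue points the 32 called lower in aWAT. The largest differences are those of miR-206-3p at 7.14 and miR-196a-5p at -7.28.

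The number of calls rested on single libraries and on the shared estimate of spread. It was 11 without aWAT library 2, 22 without cWAT library 2, 33 without cWAT library 1, 42 without cWAT library 3, 43 without aWAT library 1 and 67 without aWAT library 3, and it was 2 when only the aWAT and cWAT libraries entered the fit. Only 8 of the 67 calls were kept in all 6 omissions, those of miR-196a-5p, miR-196b-5p, miR-3065-5p, miR-206-3p, miR-149-5p, miR-193b-3p, miR-136-3p and miR-340-3p. Of these 8, only miR-196a-5p and miR-196b-5p were called with the aWAT and cWAT libraries alone (adjusted p = 4.02e-05 and 0.0481, limma). All 67 kept their direction in each of these fits. The striated muscle list took up to 19.5% of reads in an aWAT library, and when it was taken out and the remaining reads were scaled to a common total (RPM), 34 miRNAs were called higher and 14 lower and the median log2 fold change was 0.12.

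The largest decrease was that of miR-196a-5p, which is encoded in the Hox clusters. Of 7 tested members of the Hox cluster list, 3 were lower in aWAT (against 7.34% of all tested miRNAs), miR-196a-5p, miR-196b-5p and miR-615-3p, and none was higher. miR-196a is known to act on Hox messenger RNAs in the mouse and to be needed for the conversion of white fat progenitors toward a brown-like state. The median log2 fold change over the 7 was -0.39, against 0.02 over all tested miRNAs.

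miR-196a-5p stood at 4.56, 9.06 and 6.24 normalized counts in the aWAT libraries and at 1239.9, 1186 and 1029 in the cWAT libraries. The groups were far apart, and the aWAT values rested on 4, 7 and 5 reads against 1225, 709 and 2978 reads in cWAT. Its mean was 174-fold lower in aWAT (log2 fold change -7.28 ± 0.20 (SE), adjusted p = 2.32e-13, limma). The other depots ranged widely, with 1109 to 1242 in iWAT, 584 to 668 in mWAT, 21.3 to 32.9 in eWAT and 0 in all 3 iBAT libraries, so that aWAT lay between iBAT and eWAT in that order. The neighbours cWAT and iWAT overlapped.

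The related miR-196b-5p had 173, 82.9 and 46.2 normalized counts in aWAT and 1217, 1031 and 939 in cWAT, again without overlap, and its mean was 10.5-fold lower in aWAT (log2 fold change -3.58 ± 0.41 (SE), adjusted p = 5.83e-05, limma). It was 1983 to 2274 in mWAT, 1182 to 1511 in iWAT, 63.9 to 113 in eWAT and 1.76 to 7.22 in iBAT, so the aWAT libraries overlapped those of eWAT. For miR-615-3p the values were 784, 439 and 459 in aWAT and 1103, 1128 and 1194 in cWAT (log2 fold change -1.08 ± 0.22 (SE), adjusted p = 0.0167, limma). Library 1 of aWAT was the highest of its group for miR-196b-5p and miR-615-3p and the lowest for miR-196a-5p. Without aWAT library 2 the call of miR-615-3p was lost (adjusted p = 0.0534 in limma).

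The precursors of these miRNAs lie in 3 Hox clusters of GRCm38.p6. Those of miR-196a lie at chr11:96265164-96265265, 6065 bases from Hoxb9, and at chr15:102973350-102973434, 1452 bases from Hoxc10. Mir196b lies at chr6:52230081-52230165, 1032 bases from Hoxa10, and miR-615-3p is encoded at chr15:103014969-103014990 within Hoxc5. The mature miR-196a-5p can come from either of its loci, and the opposite arm tells them apart. The arm from the chr15 locus, miR-196a-2-3p, was at 0 in all 3 aWAT libraries and had 11, 2 and 26 reads in the cWAT libraries, whereas the arm from the chr11 locus was at 0 in all 6. Neither arm passed the filter, and since the smallest value above 0 in 4 of the 6 libraries is 2 reads, a 0 may stand for 1 read.

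The miR-10 forms, which are encoded in the Hoxb and Hoxd clusters toward the genes expressed at the front of the body, were among the most abundant miRNAs in both groups. miR-10a-5p had 98858, 102554 and 72618 normalized counts in aWAT and 118724, 105803 and 131062 in cWAT (log2 fold change -0.39 ± 0.17 (SE), adjusted p = 0.156, limma). miR-10b-5p had 146293, 134880.0 and 91840.0 in aWAT and 142057, 136212 and 179437 in cWAT (log2 fold change -0.31 ± 0.20 (SE), adjusted p = 0.347, limma). Neither was called. The miR-10b-5p libraries overlapped, while all 3 aWAT libraries were below all 3 cWAT libraries for miR-10a-5p. The pair differs at 1 of 23 positions, so reads could be shared here too. Of the 5 other listed members, miR-10a-3p and miR-10b-3p were tested and not called, and 3 did not pass the filter.

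**Figure D2:**
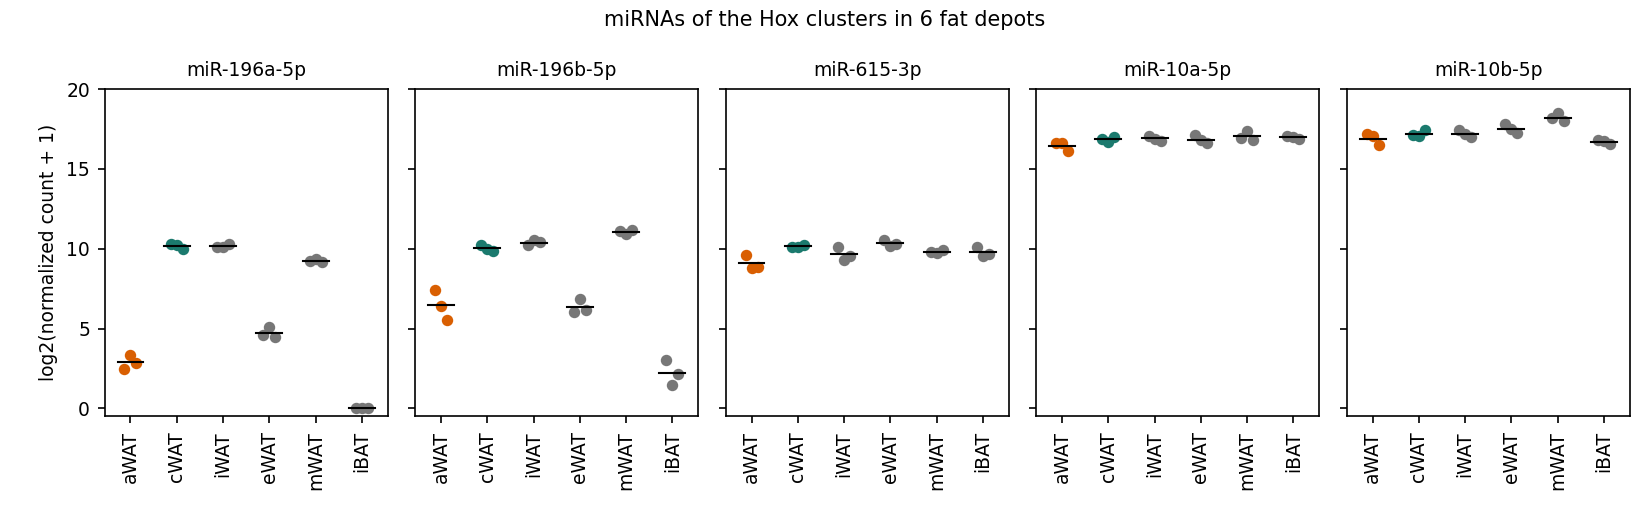
Each panel shows 1 miRNA of the Hox clusters as log2(normalized count + 1) on the y axis, with 3 libraries per depot as points and their mean as a bar, and the depots on the x axis. miR-196a-5p and miR-196b-5p are low in aWAT and high in cWAT, while miR-10a-5p and miR-10b-5p differ little between them, with log2 fold changes of -0.39 and -0.31.

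Striated muscle miRNAs were higher in aWAT. Of 7 tested members of that list, 6 were called higher (against 8.03% of all tested), with a median log2 fold change of 4.74, and the remaining one, miR-499-5p, was not called. miR-206 is known chiefly from skeletal muscle, while miR-1 and miR-133 are shared by skeletal and heart muscle. Summed over the list, levels were 562708, 177379 and 72487 normalized counts in aWAT and 1273, 25772 and 19341 in cWAT. That is 19.5%, 7.65% and 3.2% of reads in aWAT, against 0.0513%, 1.06% and 0.821% in cWAT. In bulk tissue, more cells of a type and more RNA per cell cannot be told apart.

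miR-206-3p had 4181, 1949 and 1352 normalized counts in the aWAT libraries and 0, 55.2 and 68.8 in the cWAT libraries. All 3 aWAT libraries were above all 3 cWAT libraries, and cWAT library 1 was at 0. Its mean was 60.4-fold higher in aWAT (log2 fold change 7.14 ± 1.50 (SE), adjusted p = 0.0167, limma), and it was 106 to 218 in iBAT, the next depot in order, without overlap. Its precursor shares a cluster with that of miR-133b at chr1:20679010-20682887.

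miR-1a-3p had 440919, 134457 and 59728 normalized counts in aWAT and 1107, 21657 and 16033 in cWAT (log2 fold change 4.39 ± 1.17 (SE), adjusted p = 0.03, limma). It was the most abundant miRNA of aWAT library 1, with 15.3% of its reads, whereas miR-143-3p, a miRNA of smooth muscle and mesenchyme, led in each of the other 5 libraries. miR-133a-3p, which in the mouse is known to act on the brown fat regulator Prdm16, had 109314, 37738 and 10415 in aWAT and 141, 3687 and 2960.0 in cWAT (log2 fold change 4.92 ± 1.22 (SE), adjusted p = 0.0219, limma). Within each group the same libraries were high and low for both, aWAT library 1 the highest and library 3 the lowest of aWAT, and cWAT library 1 the lowest of cWAT.

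The other called members had the same order of libraries in aWAT, and cWAT library 1 was again the lowest of cWAT. miR-133b-3p differed by 4.74 ± 1.24, adjusted p = 0.0268, miR-133a-5p by 4.83 ± 1.23, adjusted p = 0.0219 and miR-1a-1-5p by 4.29 ± 1.00, adjusted p = 0.0183, as log2 fold change with SE and limma's adjusted p. miR-499-5p, which is known from slow and heart muscle, had 63.8, 12.9 and 13.7 normalized counts in aWAT and 14.2, 3.35 and 14.5 in cWAT and overlapped (log2 fold change 1.23 ± 0.59 (SE), adjusted p = 0.181, limma). miR-208b-3p, known from the same fibres, had 8 reads in aWAT library 1 and 0 in the other 5 libraries.

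Apart from miR-206-3p, the muscle calls rested on 3 libraries. Without aWAT library 1, aWAT library 2 or cWAT library 1, only 1 member of the list was called, and the largest adjusted p over the omissions was 0.109 for miR-1a-3p, 0.0687 for miR-133a-3p, 0.0938 for miR-133b-3p, 0.0728 for miR-133a-5p and 0.0606 for miR-1a-1-5p. Without cWAT library 1 the median of the list was 3.24.

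Several miRNAs outside the list had the same order of libraries in aWAT. miR-149-5p, encoded in the proteoglycan gene Gpc1, had 1733, 609.9 and 404 normalized counts in aWAT and 202, 298 and 222 in cWAT (log2 fold change 1.66 ± 0.39 (SE), adjusted p = 0.0183, limma). miR-128-3p, known from brain and muscle, had 749, 337 and 276 in aWAT and 165, 254 and 202 in cWAT (log2 fold change 1.01 ± 0.27 (SE), adjusted p = 0.0308, limma). All 3 aWAT libraries exceeded all 3 cWAT libraries for both, with library 1 the highest. miR-486b-3p, of a precursor pair known from red blood cells and striated muscle, was higher too (log2 fold change 2.41 ± 0.69 (SE), adjusted p = 0.0361, limma), at 134, 38.8 and 25 in aWAT and 6.07, 8.36 and 13.1 in cWAT. It was the 1 member of 5 in the red blood cell list that was called (8.03% of all tested miRNAs were higher). The abundant miR-486a-5p was not called (0.46 ± 0.42, adjusted p = 0.568). The list's sum was 28344, 26872 and 16513 in aWAT and 23777, 19005 and 28034 in the cWAT libraries. The part of muscle RNA in these differences was not tested. The calls of miR-128-3p and miR-486b-3p were lost without aWAT library 1, aWAT library 2 or cWAT library 1, that of miR-128-3p also without cWAT library 3 and that of miR-486b-3p also without cWAT library 2, with adjusted p up to 0.101 and 0.122.

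miR-205-5p and 3 miR-200 miRNAs of the epithelium list were higher in aWAT as well, with the order of the aWAT libraries turned round. Of 18 tested members of the list, 4 were higher (against 8.03% of all tested), 1 was lower (against 7.34%) and 13 were not called, while 16 had a positive fold change, with a median of 1.04. The members that rose belong to the miR-200 family, which holds cells in an epithelial state by acting on Zeb1 and Zeb2, and to miR-205, known from skin and gland epithelium. Summed levels were 4606, 12162 and 23949.9 normalized counts in aWAT and 6016, 5466 and 5730.0 in the cWAT libraries. The ranges overlapped, and a large part of the sum in aWAT library 1 and the cWAT libraries was miR-203-3p, the member that was lower.

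miR-205-5p had 68.4, 796 and 1436 normalized counts in aWAT and 7.08, 3.35 and 4.49 in cWAT. All 3 aWAT libraries were higher, but library 1 was far below the other two, and the mean was 154-fold higher in aWAT (log2 fold change 6.22 ± 1.38 (SE), adjusted p = 0.0181, limma). iWAT spanned 5.17 to 417, which overlaps both groups.

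miR-200a-3p had 330.4, 2149.5 and 4873 normalized counts in aWAT and 31.4, 51.9 and 42.2 in cWAT, and its mean was 58.6-fold higher in aWAT (log2 fold change 5.17 ± 1.31 (SE), adjusted p = 0.0219, limma). miR-200b-3p had 219.9, 1652 and 4663 in aWAT and 31.4, 55.2 and 39.4 in cWAT (log2 fold change 4.83 ± 1.54 (SE), adjusted p = 0.0469, limma). miR-429-3p had 29.6, 293 and 493 in aWAT and 6.07, 3.35 and 2.76 in cWAT (log2 fold change 5.08 ± 1.37 (SE), adjusted p = 0.0308, limma). The groups did not overlap for any of the 3, and aWAT library 1 was the lowest and library 3 the highest each time. These 3 miRNAs come from 1 stretch of chromosome 4, chr4:156053905-156055750 in GRCm38.p6, and so are not independent of each other.

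The other family members, from a cluster at chr6:124717914-124718390, had differences of like size that were not called. miR-200c-3p had 96.8, 831 and 2163 normalized counts in aWAT and 19.2, 50.2 and 25.6 in cWAT (log2 fold change 4.22 ± 1.41 (SE), adjusted p = 0.0594, limma). miR-141-3p had 99.1, 769 and 1173 in aWAT and 11.1, 70.3 and 32.8 in cWAT (log2 fold change 3.87 ± 1.45 (SE), adjusted p = 0.0913, limma). Neither overlapped between the groups. The level of the family varied within other depots too, from 25.4 to 1521 for miR-200a-3p in iWAT and 171 to 2393 in mWAT, while eWAT held 1096 to 3385 and iBAT 5.27 to 9.62.

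miR-31-5p, known from skin and hair follicles, was called outside the list with 34.2, 110.1 and 186 normalized counts in aWAT and 9.11, 0 and 14.9 in cWAT (log2 fold change 4.05 ± 0.92 (SE), adjusted p = 0.0182, limma), and its opposite arm had 2, 3 and 9 reads in aWAT and 0 in all 3 cWAT libraries. miR-184-3p, known from the lens and skin, had 84.3, 216 and 316 in aWAT and 59.7, 45.2 and 77.1 in cWAT (log2 fold change 1.58 ± 0.51 (SE), adjusted p = 0.0477, limma). Both followed the library order of the miR-200 family in aWAT. The part of epithelial RNA in these differences was not tested.

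Each of the calls of miR-205-5p, the miR-200 family, miR-31-5p and miR-184-3p was lost in at least 1 omission. Without aWAT library 2 no member of the list was called higher, and with reads scaled to RPM or by TMM there were 3 called higher, without miR-200b-3p. Without aWAT library 1 there were 6, without cWAT library 3 there were 2, and without cWAT library 1, cWAT library 2 or aWAT library 3 there was 1. The largest adjusted p over the omissions was 0.0534 for miR-205-5p, 0.0534 for miR-31-5p, 0.0668 for miR-200a-3p, 0.0837 for miR-429-3p, 0.144 for miR-200b-3p and 0.169 for miR-184-3p.

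**Figure D3:**
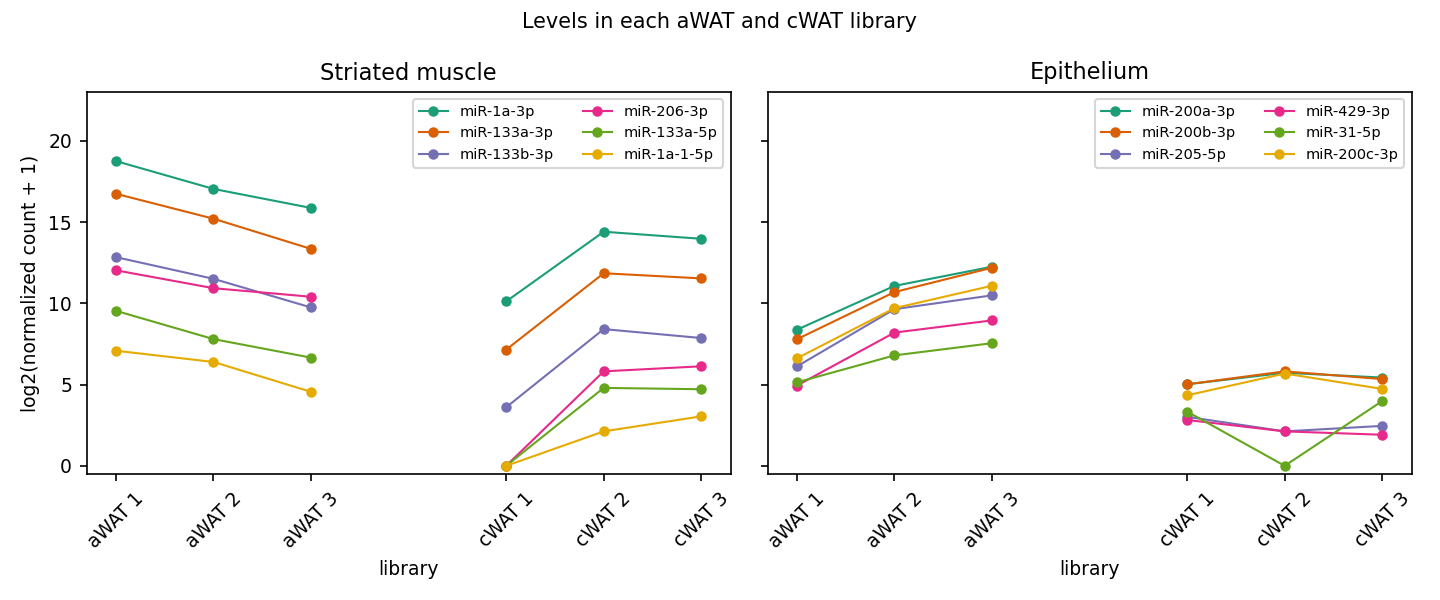
Level of each miRNA as log2(normalized count + 1) on the y axis in the 6 libraries on the x axis, with 6 members of the striated muscle list on the left and 5 members of the epithelium list plus miR-31-5p on the right. Lines only join the values of 1 miRNA within a group. In aWAT, library 1 is the highest for every muscle miRNA drawn and the lowest for every epithelial one drawn, and cWAT library 1 is the lowest of cWAT for every muscle miRNA drawn.

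Several lymphocyte miRNAs were lower in aWAT. Of 13 tested members of the lymphocyte and lymph node list, 4 were lower (against 7.34% of all tested) and none was higher, with a median of -0.95. Of 10 in the pan-leukocyte and myeloid list, 1 was lower, a share near that of all tested miRNAs, and the median was 0.14. Summed levels of the lymphocyte list were 26743, 28522 and 28586 normalized counts in aWAT and 31179.9, 53855 and 37574 in the cWAT libraries. The aWAT libraries were close together and all below cWAT, in which library 2 was the highest. Summed levels of the myeloid list were 78869, 100905 and 186785 in aWAT and 151761, 154840.0 and 98353 in cWAT, which overlapped. The arms of miR-21a, neither of them called, made up most of the myeloid sum in each library. Most of the lymphocyte sum was miR-146a-5p. The part of immune cell RNA in the differences below was not tested.

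miR-142a-5p, which blood cells of all lineages carry, had 6971, 9485 and 6633 normalized counts in aWAT and 9894, 37214 and 20438 in cWAT (log2 fold change -1.37 ± 0.35 (SE), adjusted p = 0.0219, limma). Its other arm, miR-142a-3p, had 908, 1207 and 963 in aWAT and 1069, 5074 and 2309 in cWAT, overlapped and was not called (-1.19 ± 0.44, adjusted p = 0.0877). In cWAT both arms were highest in library 2 and lowest in library 1, whose values lay near those of aWAT.

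miR-342-3p, known from lymphocytes, had 878, 1032 and 994 normalized counts in aWAT and 1378, 3123 and 1525 in cWAT (log2 fold change -0.95 ± 0.24 (SE), adjusted p = 0.0219, limma). miR-146a-5p, a brake on Toll-like receptor signalling through Traf6 and Irak1, was lower as well, at 15718, 18705 and 20151 in aWAT and 21944, 31014 and 23694 in cWAT (log2 fold change -0.48 ± 0.15 (SE), adjusted p = 0.0431, limma). Neither overlapped, and library 2 was the highest of cWAT for both. miR-150-5p, a marker of mature lymphocytes, had 3551, 2960.1 and 2037 in aWAT and 2500.0, 12728 and 6595 in cWAT and was not called (log2 fold change -1.10 ± 0.43 (SE), adjusted p = 0.106, limma), whereas its low arm miR-150-3p was (-2.00 ± 0.64, adjusted p = 0.0477), at 3.42, 10.4 and 6.24 in aWAT and 13.2, 45.2 and 34.2 in cWAT.

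miR-155-5p, of activated lymphocytes and macrophages, had 229, 169.6 and 133 normalized counts in aWAT and 172, 589 and 293 in cWAT (-0.84 ± 0.33, adjusted p = 0.11), and miR-223-3p, of neutrophils and monocytes, had 1076, 1376 and 977 in aWAT and 750.0, 867 and 876 in cWAT (0.45 ± 0.16, adjusted p = 0.0817). Neither was called, and their estimates had opposite signs. Without cWAT library 2 no member of the lymphocyte list was called, its median was -0.51, and the call of miR-142a-5p was lost too. Omitting aWAT library 1 or aWAT library 2 also left no lymphocyte call and ended that of miR-142a-5p, omitting cWAT library 3 left 1 lymphocyte call and ended that of miR-142a-5p, and TMM scaling left 1. Without aWAT library 3 the lymphocyte list had 1 higher and 2 lower calls. The fourth lower member of the lymphocyte list, miR-106a-5p, is described with the miR-17-92 paralogs. The largest adjusted p over the omissions was 0.0628 for miR-342-3p, 0.189 for miR-146a-5p, 0.182 for miR-150-3p and 0.0804 for miR-142a-5p.

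Of the miRNAs known from brown fat and browning, 5 of 23 tested were lower in aWAT (against 7.34% of all tested) and none was higher, and the median was -0.07. miR-193b-3p, which promotes brown fat cell formation in the mouse, had 1015, 1174 and 798 normalized counts in aWAT and 1538, 2016 and 2118 in the cWAT libraries. The groups did not overlap, and its mean was 1.9-fold lower in aWAT (log2 fold change -0.93 ± 0.17 (SE), adjusted p = 0.00539, limma). Both were far below iBAT, at 7708 to 10794, while eWAT with 669.5 to 778 and mWAT with 598 to 664 were lower still.

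Its partner, miR-365-3p, had 5463, 4145 and 4268 normalized counts in aWAT and 8366, 7796 and 6005 in cWAT (log2 fold change -0.67 ± 0.20 (SE), adjusted p = 0.0372, limma), without overlap, and iBAT had 14105 to 17375. The mature miR-365-3p is encoded on chromosome 16, as is miR-193b, and also on chromosome 11, so its reads may come from either locus. The opposite arm from chromosome 11, miR-365-2-5p, was not called, and that from chromosome 16, miR-365-1-5p, was not tested. The other arm of miR-193b was lower with overlapping libraries (-1.51 ± 0.48, adjusted p = 0.0475), at 2.28, 9.06 and 4.99 in aWAT and 22.3, 8.36 and 20 in cWAT. miR-203-3p, known from keratinocytes and placed in this list for its part in brown fat, was 2382, 2385 and 2832 in aWAT and 4034, 2911 and 3328 in cWAT (-0.43 ± 0.12, adjusted p = 0.0362). The direction was opposite to that of the called miR-200 family members. miR-181a-1-3p was the fifth (-0.45 ± 0.14, adjusted p = 0.0422).

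Other well known brown fat miRNAs did not pass the test between aWAT and cWAT. miR-378a-3p, encoded in the gene of the coactivator PGC-1beta, had 35598, 22159 and 19162 normalized counts in aWAT and 23274, 30146 and 32407 in cWAT (-0.20 ± 0.19, adjusted p = 0.592), against 206494 to 250869 in iBAT. miR-378a-5p had 1392, 769 and 465 in aWAT and 559.7, 559 and 602 in cWAT (0.47 ± 0.26, adjusted p = 0.252), and miR-455-3p had 263, 277 and 279 in aWAT and 313, 182 and 124 in cWAT (0.51 ± 0.38, adjusted p = 0.473). All 3 overlapped, and their estimates had different signs.

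Among miRNAs known to oppose browning, 3 of 11 were higher in aWAT (against 8.03% of all tested), of which miR-133a-3p and miR-133b-3p are also in the muscle list and miR-23b-3p rose by a log2 fold change of 0.31 ± 0.10, adjusted p = 0.0431. With muscle miRNAs left out and reads scaled to RPM, 1 call remained in this list and 1 in the brown fat list. The median of the brown fat list was then 0.05, against 0.12 over all miRNAs in that fit. The call of miR-193b-3p was kept in every single-library omission, with adjusted p from 0.0023 to 0.0336. The other brown fat calls were lost in some, with the largest adjusted p 0.131 for miR-365-3p, 0.189 for miR-193b-5p, 0.162 for miR-203-3p and 0.124 for miR-181a-1-3p, and that of miR-23b-3p reached 0.121. The brown fat list had 1 lower member without aWAT library 2 or cWAT library 1, 2 without cWAT library 3, 3 without cWAT library 2, 4 without aWAT library 1, and 3 lower with 3 higher without aWAT library 3. The list of miRNAs opposing browning had no higher member without aWAT library 1, aWAT library 2 or cWAT library 1, and 1 lower member in the last of these.

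Of 19 tested miRNAs known from adipogenesis and lipid metabolism, 4 were lower in aWAT (against 7.34% of all tested) and none was higher, with a median of -0.09. miR-103-3p and miR-107-3p, which lie in the pantothenate kinase genes and regulate insulin sensitivity in the mouse, share the seed GCAGCAU and differ at 1 of 23 positions. miR-103-3p had 4698, 4704 and 6028 normalized counts in aWAT and 8177, 6925 and 6091 in cWAT (-0.46 ± 0.14, adjusted p = 0.0431), and miR-107-3p had 337, 342 and 318 in aWAT and 424, 537 and 462 in cWAT (-0.51 ± 0.15, adjusted p = 0.0426). Reads of one could be counted for the other. The groups did not overlap for either, but the highest aWAT and the lowest cWAT library of miR-103-3p lay close together.

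miR-335-3p, encoded in Mest, a gene that marks the expansion of fat tissue, had 329, 208 and 235 normalized counts in aWAT and 538, 378 and 500.4 in cWAT (log2 fold change -0.88 ± 0.27 (SE), adjusted p = 0.0431, limma). The abundant arm miR-335-5p was not called (-0.59 ± 0.24, adjusted p = 0.113), at 3223, 1928 and 1549.5 in aWAT and 3352, 2612 and 3768 in cWAT, which overlapped. miR-211-5p, which lies in Trpm1 and is known from melanocytes, had 0, 2.59 and 1.25 in aWAT and 3.04, 75.3 and 23.5 in cWAT (-3.29 ± 0.99, adjusted p = 0.0426). cWAT libraries 2 and 3 were high, and cWAT library 1 was close to aWAT. No member of this list was called lower without aWAT library 2 or cWAT library 2, 1 was without aWAT library 3, cWAT library 1 or cWAT library 3, and 2 were without aWAT library 1. Without aWAT library 3, 2 members were called higher. Over the omissions the largest adjusted p was 0.192 for miR-103-3p, 0.157 for miR-107-3p, 0.15 for miR-335-3p and 0.181 for miR-211-5p. With muscle miRNAs left out and reads scaled to RPM, 1 call was left. The median of the list was then 0.02, against 0.12 over all miRNAs in that fit.

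The miRNAs of the imprinted Dlk1-Dio3 region, which are expressed from the maternal chromosome 12 and are many in embryonic and mesenchymal cells, mostly had positive fold changes. Of 49 tested, 9 were higher (8.03% of all tested miRNAs were), none was lower, 39 had a positive fold change and the median was 0.23. The changes were small next to those of muscle and epithelium. Their summed level was 22048, 18644 and 20070.0 normalized counts in aWAT and 16477, 14563 and 16127 in cWAT, without overlap.

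miR-136-3p had 2538, 1775 and 1513 normalized counts in aWAT and 1197, 1064 and 1195 in cWAT (log2 fold change 0.72 ± 0.15 (SE), adjusted p = 0.0167, limma), and its other arm miR-136-5p had 237, 115 and 146 in aWAT and 96.2, 87 and 102 in cWAT (log2 fold change 0.73 ± 0.20 (SE), adjusted p = 0.034, limma). miR-376b-5p had 114, 79 and 61.1 in aWAT and 45.5, 33.5 and 46.3 in cWAT (0.97 ± 0.22, adjusted p = 0.0181). miR-411-5p had 332, 298 and 319 in aWAT and 232, 182 and 225 in cWAT (0.57 ± 0.13, adjusted p = 0.0183). All aWAT libraries exceeded all cWAT libraries in these 4, and library 1 was the highest of aWAT.

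The other called members were miR-369-3p (0.69 ± 0.17, adjusted p = 0.0219), miR-337-3p (1.33 ± 0.42, adjusted p = 0.0475), miR-434-3p (0.55 ± 0.16, adjusted p = 0.0361), miR-377-3p (0.95 ± 0.27, adjusted p = 0.0361) and miR-381-3p (0.44 ± 0.13, adjusted p = 0.0361). The groups overlapped for miR-377-3p, since aWAT library 3 stood at 81.1 normalized counts and cWAT library 1 at 86. Of the 9, 4 came from chr12:109585789-109595388 and 5 from chr12:109709060-109743795, where tested members had median log2 fold changes of 0.38 and 0.19. The part of muscle or mesenchymal RNA in these values was not tested. The count of 9 was 3 without aWAT library 1 or aWAT library 2 and 1 without cWAT library 2, and the median was between 0.15 and 0.35 over the 6 omissions. Adjusted p reached 0.047 for miR-136-3p, 0.0951 for miR-136-5p, 0.057 for miR-376b-5p, 0.0643 for miR-411-5p, 0.0804 for miR-369-3p, 0.216 for miR-337-3p, 0.0951 for miR-434-3p, 0.141 for miR-377-3p and 0.102 for miR-381-3p in the omissions.

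Of 12 tested miRNAs of smooth muscle and mesenchyme, 2 were higher in aWAT (against 8.03% of all tested miRNAs), and the median of the list was 0.14. The called members were the 2 listed as arms of miR-199b, which is known from fibroblasts and other mesenchymal cells. The related miR-199a-5p was not called. Whether reads of miR-199a were counted under miR-199b-3p cannot be told from these counts. miR-199b-5p had 4196, 5484 and 5969.7 normalized counts in aWAT and 3318, 3711 and 3455 in cWAT (log2 fold change 0.56 ± 0.15 (SE), adjusted p = 0.0321, limma), and miR-199b-3p had 8991, 11299 and 13591 in aWAT and 8218, 8546 and 7710.1 in cWAT (log2 fold change 0.45 ± 0.14 (SE), adjusted p = 0.0469, limma). Here library 3 was the highest of aWAT, and no library overlapped. Omitting aWAT library 1 kept both calls and each of the other 5 omissions ended both, with adjusted p up to 0.0837 and 0.153. miR-143-3p, the most abundant of this list, had 298040.0, 293008 and 292390.0 in aWAT and 313796, 285452 and 333440.0 in cWAT (-0.08 ± 0.12, adjusted p = 0.766). Its fold change turned to 0.040 when muscle miRNAs were left out and reads scaled to RPM, where the median over all miRNAs was 0.12.

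Called miRNAs with the same seed did not all move together. Seeds were compared among the 381 tested miRNAs matched to a RefSeq sequence, and 5 seeds were shared by at least 2 called miRNAs. Called miRNAs without a matched sequence, among them miR-1a-3p and miR-133a-3p, are left out of this count. Any seed these share with miR-206-3p, miR-133b-3p or another called miRNA is therefore missed. In 4 of these 5 the members had the same direction, namely miR-196a-5p with miR-196b-5p, miR-103-3p with miR-107-3p, miR-200b-3p with miR-429-3p, and miR-92a-3p with miR-25-3p. Under the seed AGCAGCA of the miR-15 family, which is known to restrain the cell cycle, miR-15b-5p was lower in aWAT (log2 fold change -0.64 ± 0.16 (SE), adjusted p = 0.0219, limma), at 1007, 1225 and 1018 normalized counts in aWAT and 1282, 2238 and 1669 in cWAT. miR-195a-5p was higher (0.39 ± 0.11, adjusted p = 0.0362), at 5859, 7285 and 5323 in aWAT and 4664, 4311 and 4973 in cWAT. miR-497a-5p was higher too (0.48 ± 0.15, adjusted p = 0.0426), at 824, 992 and 905 in aWAT and 632, 701 and 608 in cWAT. miR-195a and miR-497a come from 1 cluster at chr11:70234717-70235135, and miR-15b from chr3:69009772-69009835 within Smc4. The call of miR-15b-5p was lost without aWAT library 1 or cWAT library 2, that of miR-195a-5p without aWAT library 1, aWAT library 2, cWAT library 1 or cWAT library 2, and that of miR-497a-5p in every omission but that of aWAT library 1. The largest adjusted p over the omissions was 0.0763, 0.143 and 0.142 for miR-15b-5p, miR-195a-5p and miR-497a-5p. These calls depended on the scaling as well. That of miR-15b-5p was lost in RPM without the striated muscle list, and those of miR-195a-5p and miR-497a-5p in RPM of all reads.

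In the miR-17-92 cluster and its paralogs, which are high in dividing cells, 3 of 17 were lower in aWAT (against 7.34% of all tested) and none was higher, with a median of -0.32. miR-92a-3p had 5743, 5203 and 6263 normalized counts in aWAT and 7448, 12102 and 7962 in cWAT (log2 fold change -0.65 ± 0.16 (SE), adjusted p = 0.0219, limma). miR-25-3p had 2996, 3262 and 3431 in aWAT and 3748, 4515 and 3936 in cWAT (-0.33 ± 0.10, adjusted p = 0.0431), and the low miR-106a-5p had 2.28, 2.59 and 0 in aWAT and 6.07, 25.1 and 11.4 in cWAT (-2.53 ± 0.82, adjusted p = 0.0477). In each case cWAT library 2 was the highest, as it was for the lymphocyte miRNAs, and without it, or without aWAT library 2, none of the 3 was called. Omissions took the adjusted p up to 0.0755, 0.179 and 0.189 for miR-92a-3p, miR-25-3p and miR-106a-5p.

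Arms were paired only where RefSeq's table held both of them, which gave 124 tested pairs. Among these, both arms were called for miR-136, miR-139, miR-193b and miR-574, each pair in 1 direction. In 25 of the 124 pairs 1 arm was called, and the other arm had the same sign in 23 of them. Outside these pairs, the miRNAs listed as both arms of miR-199b and of miR-133a were called higher, and of miR-150 only the 3p arm was called. miR-574-3p (0.47 ± 0.10, adjusted p = 0.0181) and miR-574-5p (0.52 ± 0.16, adjusted p = 0.0426) were higher in aWAT, and miR-139-5p (-0.40 ± 0.11, adjusted p = 0.0343) and miR-139-3p (-0.84 ± 0.26, adjusted p = 0.0469) were lower. Among these, miR-574-3p was lost only without aWAT library 2, with an adjusted p of 0.0539, while miR-574-5p was lost in all 6 omissions (up to 0.13), miR-139-5p in 4 (up to 0.128) and miR-139-3p in 5 (up to 0.214).

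**Figure D4:**
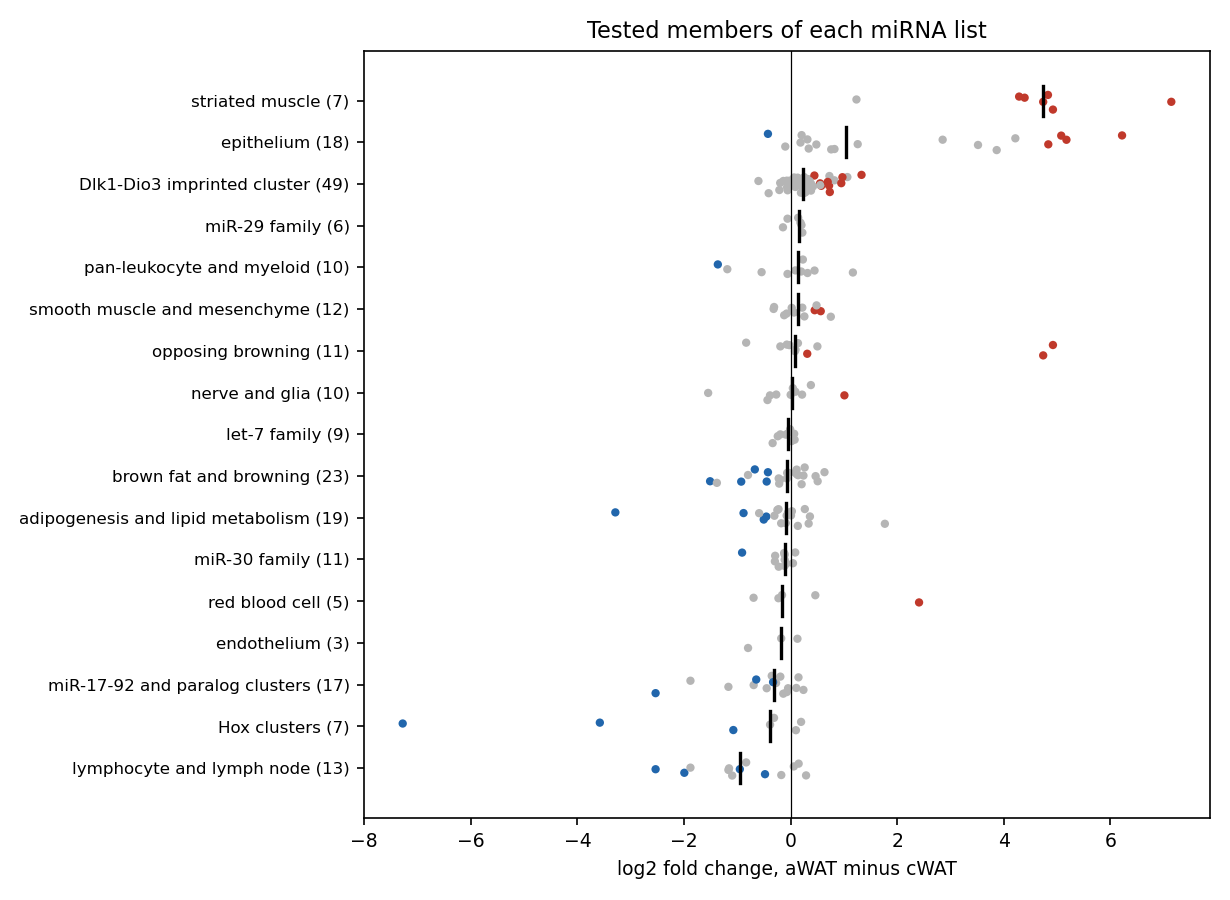
Each point is a tested member of a miRNA list, with its log2 fold change, aWAT minus cWAT, on the x axis and the lists, with the number tested in brackets, down the y axis. Red points were called higher and blue points lower in aWAT, grey points were not called, and the black bar is the list's median. The liver list, with 1 member, is not drawn. Medians run from 4.74 in the striated muscle list to -0.95 in the lymphocyte list.

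The lists of let-7 (9 tested), miR-29 (6 tested) and endothelium (3 tested) had no called member, with medians of -0.05, 0.16 and -0.18. The single liver miRNA, which had under 10 normalized counts in each of the 6 libraries, was not called (log2 fold change -0.98). In the miR-30 list 1 of 11 was lower, near the 7.34% of all tested, the scarce arm miR-30c-1-3p (-0.91 ± 0.28, adjusted p = 0.0426), whose call was kept only in the omission of aWAT library 1, where 4 members were called lower, and was otherwise lost (adjusted p up to 0.159), while miR-30e-5p, an abundant member, was not called at 43777, 36246 and 30647 normalized counts in aWAT and 41622, 45560.5 and 47499 in cWAT (-0.30 ± 0.12, adjusted p = 0.125). Of 10 in the nerve and glia list, 1 was higher, miR-128-3p, near the 8.03% of all tested.

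miR-3065-5p gave the third largest decrease among called miRNAs and was among the 8 calls kept in every omission. It had 4.56, 0 and 3.74 normalized counts in aWAT and 38.5, 21.7 and 38.7 in cWAT, from 4, 0 and 3 reads in aWAT and 38, 13 and 112 reads in cWAT (log2 fold change -3.47 ± 0.53 (SE), adjusted p = 0.00143, limma). Its precursor, at chr11:120014767-120014853 in GRCm38.p6, lies within Aatk on the strand opposite to that of miR-338. The miR-338 arms were not called, with 0.38 ± 0.17, adjusted p = 0.156 for miR-338-3p and -0.27 ± 0.26, adjusted p = 0.597 for miR-338-5p. Across depots miR-3065-5p was 31.6 to 52.9 in iBAT, 13.6 to 27.5 in mWAT, 10.7 to 22 in iWAT and 4.15 to 6.41 in eWAT, so that aWAT and eWAT overlapped at the low end.

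miR-340-3p was also kept in every single-library omission, at 348, 321 and 272 normalized counts in aWAT and 469, 510.3 and 437 in cWAT (log2 fold change -0.59 ± 0.13 (SE), adjusted p = 0.0167, limma). miR-351-5p (-0.64 ± 0.16, adjusted p = 0.0219) and miR-450b-5p (-0.61 ± 0.19, adjusted p = 0.0431), encoded near each other on the X chromosome, were lower as well. The remaining called miRNAs were higher for miR-298-5p (2.06 ± 0.65, adjusted p = 0.0464), miR-190a-5p (1.10 ± 0.31, adjusted p = 0.0361), miR-218-5p (0.63 ± 0.18, adjusted p = 0.0361) and miR-345-5p (0.47 ± 0.13, adjusted p = 0.0361). They were lower for miR-488-3p (-1.82 ± 0.41, adjusted p = 0.0182), miR-3082-3p (-1.36 ± 0.38, adjusted p = 0.0337), miR-708-3p (-0.46 ± 0.12, adjusted p = 0.0219), miR-1843b-5p (-0.34 ± 0.09, adjusted p = 0.0219) and miR-423-3p (-0.34 ± 0.10, adjusted p = 0.0372). Levels were low for miR-298-5p, spanning 5.70 to 28.7 normalized counts across aWAT against 0 to 5.06 across cWAT. Likewise miR-488-3p spanned 2.50 to 4.56 against 10.1 to 16.7, and miR-3082-3p 2.50 to 6.84 against 13.1 to 15.1. For miR-190a-5p the groups overlapped, since aWAT library 3 stood at 69.9 and cWAT library 3 at 79.1. Among the other tools, edgeR did not call miR-298-5p and DESeq2 did not call miR-3082-3p. Values in brackets are the log2 fold change with its SE and limma's adjusted p, and the call of each miRNA in this paragraph other than miR-340-3p was lost in at least 1 omission.

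The most abundant miRNAs of the 6 libraries differed little. Beside miR-143-3p and the miR-10 forms, miR-26a-5p had 164486, 146097 and 119579 normalized counts in aWAT and 135833, 123532 and 133900.0 in cWAT (0.12 ± 0.12, adjusted p = 0.6), and miR-126a-3p, of endothelial cells, had 144209, 127898 and 108924 in aWAT and 144799, 138524 and 145006 in cWAT (-0.18 ± 0.13, adjusted p = 0.433). Neither was called, and both overlapped.

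**Figure D5:**
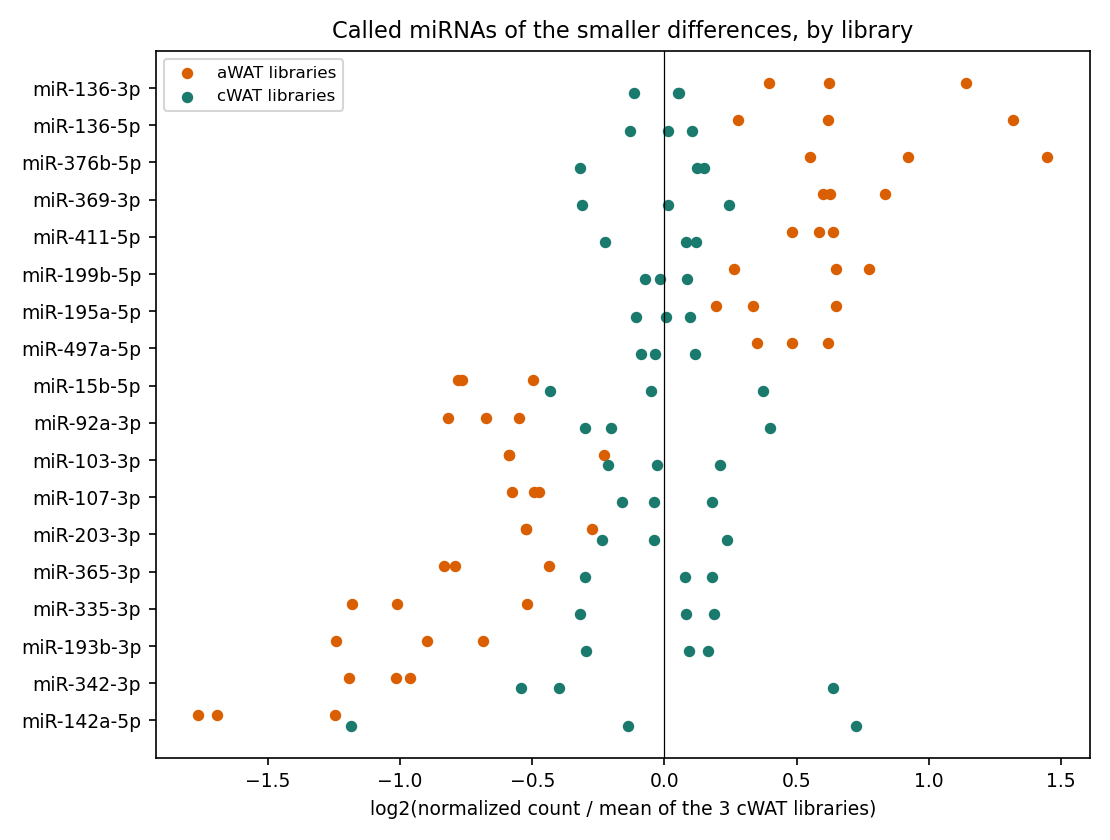
Called miRNAs with smaller differences, one per row. The x axis is log2 of the normalized count divided by the mean of the 3 cWAT libraries, with aWAT libraries in orange and cWAT libraries in green. The orange points lie to the right of the green ones for the Dlk1-Dio3 miRNAs drawn and miR-199b-5p and to the left for miR-193b-3p, miR-342-3p and miR-142a-5p, with 1 cWAT library of miR-142a-5p close to aWAT. The called Dlk1-Dio3 miRNA with overlapping groups, miR-377-3p, is not drawn.

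Set beside the other depots, aWAT and cWAT had the third fewest calls of 15 pairs of depots. The same fit called 48 miRNAs (11%) between aWAT and iWAT, and 0 (0%) between cWAT and iWAT, where limma had 54 at an unadjusted p under 0.05, edgeR called 1 and DESeq2 called 12. The other 12 pairs had 87 to 242 calls. These comparisons share libraries, so their values are given side by side only.

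Against iWAT, miR-196a-5p had a log2 fold change of -7.29 in aWAT (adjusted p = 2.26e-13, limma) and -0.01 in cWAT (adjusted p = 0.992, limma). miR-206-3p had 7.64 in aWAT (adjusted p = 0.00662, limma) and 0.50 in cWAT (adjusted p = 0.947, limma). miR-200a-3p had 3.56 in aWAT (adjusted p = 0.105, limma) and -1.61 in cWAT (adjusted p = 0.649, limma), neither called, and iWAT itself spanned 25.4 to 1521 normalized counts. miR-193b-3p had -0.73 in aWAT (adjusted p = 0.0104, limma) and 0.19 in cWAT (adjusted p = 0.669, limma). For these 4 miRNAs the estimate of aWAT against iWAT was larger in size than that of cWAT against iWAT. They were picked for their difference between aWAT and cWAT, which favours this order. No tested miRNA was called between cWAT and iWAT, so the lack of a call there is not particular to them.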

How the data were processed

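Small RNA was sequenced from whole fat pads under 6 labels, with 3 libraries each, using a TruSeq small RNA kit. The 6 labels are called depots throughout, although cWAT may be the cold-housed fat. The deposited signal is, from the values, a count per miRNA divided by a size factor per library. Dividing by the value of 1 read gave whole numbers for 100% of values (tolerance 0.02 reads), so read totals could be recovered. The smallest value above 0 was 1 read in 6 libraries and 2 reads in 12. The submitters' processing notes name kallisto 0.45.0, DESeq, DESeq2, mm10 and GRCm38 without roles, and which program aligned or counted the small RNA reads is not given in the sources. The 6 comparisons in the authors' deposited tables were not used here.

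miRNAs passing edgeR's filterByExpr (436 of 485) were tested with limma 3.58.1 (trend, R 4.3.3) on log2(normalized count + 1), over all 6 depots in 1 fit, with Benjamini-Hochberg adjustment over all 436. edgeR 4.0.16 and DESeq2 1.42.0 were run on the recovered reads. Other alternatives changed the scaling, the pseudocount (8), the filter (none, or a mean of at least 100), the samples fitted, the replicate block and single libraries. Scripts were tested on simulated data. Sequences and loci came from RefSeq tables of GRCm38.p6.

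The members, the lists and the tests were chosen with earlier results of these data known. Named miRNAs were called ones with non-overlapping libraries and a mean of at least 100 in the higher group, up to 12 per direction by size of fold change, the 6 most abundant, up to 4 per list by smallest p with a mean of at least 10, and their other arms. This rule gave 58 of the 87 tested miRNAs named with values, and the other 29, which include every called miRNA outside the rule, were chosen after their values were seen. Depth limits the low miRNAs most, since 1 read is worth 0.346 to 1.67 normalized counts in these 6 libraries, and a count of 0 allows up to 1.04 to 5.02 (3 reads, counting error only).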

Additional observations from a re-analysis of the deposited data

How the results depend on the processing

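Leaving out 1 library at a time gave 11 to 67 calls in all, 5 to 40 higher and 6 to 27 lower in aWAT, and the lowest of each came without aWAT library 2. With only the aWAT and cWAT libraries in the fit, 2 miRNAs were called, 0 higher and 2 lower. edgeR called 38 higher and 35 lower, and DESeq2 43 and 42. Scaling to RPM gave 22 higher and 24 lower, TMM scaling 32 and 26, and RPM without the striated muscle list, an alternative chosen after seeing the data, 34 and 14. A pseudocount of 8 gave 69 calls, no filter 70, a mean of at least 100 gave 55, and centring on the median 64. All 67 calls kept their direction in each setting that could be fitted. The estimate of mmu-miR-143-3p turned to 0.040 when the muscle list was taken out, and that of mmu-miR-338-5p ranged from -0.56 to 0.00106 over the single-library omissions, turning sign without cWAT replicate 1, and neither was called in any of these. The cause was not tested. Taking the muscle list out turned the medians of the brown fat list to 0.05, the adipogenesis list to 0.02 and the let-7 list to 0.06. The median over all miRNAs in that fit was 0.12, above each of these. At a mean of at least 100, the medians were 3.87 for epithelium, -0.33 for lymphocytes, -0.73 for the Hox clusters and 0.40 for Dlk1-Dio3. Deviations of same-numbered libraries from the group means correlated at -0.10, 0.05 and -0.30. Those of differently numbered libraries correlated at -0.20 to 0.26. With 3 libraries per group these values cannot tell whether same-numbered pads came from the same animal. The replicate block gave 66 calls over all 6 depots (36 higher and 30 lower) and 1 with aWAT and cWAT only (0 higher and 1 lower).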
